A study of Rattus norvegicus with 8 samples.

Results

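Epidermal and stress keratins were followed in full-thickness skin of sham-treated and streptozotocin-treated rats. The set was given as 10 genes, Krt1, Krt2, Krt5, Krt6a, Krt10, Krt14, Krt15, Krt16, Krt17 and Krt77, and array probes were assigned to them by RefSeq accession. A probe was matched for 7 of the 10 genes, 1 probe with 1 spot each, among 13903 genes named on the array in the same way. Krt5, Krt6a and Krt10 had no probe matched by accession and were not analysed here. Of the 7 matched genes, 6 were well above background in all 8 samples and were tested, while Krt2 was too dim for the filter.

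All rats were male and of the Sprague-Dawley (SD) strain. At 4 weeks of age, 1 group received streptozotocin (STZ), which kills pancreatic beta cells and so makes rats diabetic, in an intraperitoneal dose of 60 mg/kg. The sham group was given sodium citrate solution. Skin was harvested 4 weeks later, at 8 weeks of age, and its total RNA was hybridised to 1-colour Agilent arrays. The labels also speak of a cutaneous wound, without saying clearly if the skin on the arrays came from one.

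The labels list 4 samples per group, but 2 scans were deposited for each array. Replicates 1 and 3 of a group are scans of its array A, and replicates 2 and 4 are scans of its array B. Signals from repeat scans differed by an SD of 0.098 to 0.139 on the log2 scale, and those from separate arrays of a group by 0.893 to 1.17. The scans of each array were averaged, which left n = 2 arrays per group. How many rats an array stands for was not stated, so p-values measure only the spread between these arrays. All 4 arrays lay on 1 slide.

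Keratins are the intermediate filament proteins of epithelial cells, and each filament pairs a type I with a type II keratin. Basal keratinocytes make Krt5 with Krt14, and cells that leave the basal layer switch to Krt1 with Krt10. Krt6a, Krt16 and Krt17 are made in hair follicles, and in the epidermis between follicles they are known as stress keratins, induced after wounding and in inflamed skin. Keratins of the inner root sheath and hair shaft are made by growing hair follicles. In the RefSeq gene table, Krt2, Krt1 and Krt77 are consecutive genes on chromosome 7, and Krt16 and Krt17 are neighbours on chromosome 10.

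Levels below are log2 signals over the 75th percentile of each sample's spots. That percentile was 1138 to 1336 in sham samples, 1481 and 1496 in the scans of STZ array A, and 606 and 624 in those of STZ array B, the dimmest array. Of 24684 probes, 20266 to 22888 per sample were well above background, and 0 spots were saturated. On this scale the median of all 21527 tested probes was 0.23 higher in STZ. Every change of a tested gene is therefore given relative to that median, with the moderated SE of limma's fit, whose p tests the unshifted change. Not one probe passed the Benjamini-Hochberg adjustment over all tested probes (limma, smallest adjusted p = 0.0761), while 1575 were higher and 761 lower before adjustment, at p under 0.05. "Higher" and "lower" thus describe measured differences that did not pass the adjusted test.

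The 6 tested keratins did not move together. Krt16, a stress keratin, was 6.64-fold higher in STZ skin, and Krt77, known from suprabasal epidermis and sweat gland ducts, was 7.57-fold lower. Krt1 and Krt14, of suprabasal and basal cells, had higher means, and Krt15, of the basal layer and the hair follicle bulge, a lower one, with 95% intervals that held 0. Krt17, the other stress keratin, differed more between the STZ arrays than between the groups. At an unadjusted p under 0.05, 1 of 6 members was higher, where 7.32% of all tested probes were, and 1 of 6 was lower, where 3.54% were. Counts of 1 among 6 do not set the members apart from other probes. The median change of the 6 was −0.04, against 0 for all tested probes by construction. Hybridisation of a probe with transcripts of similar keratins was not tested, since the files used hold no probe sequences.

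**Figure D1:**
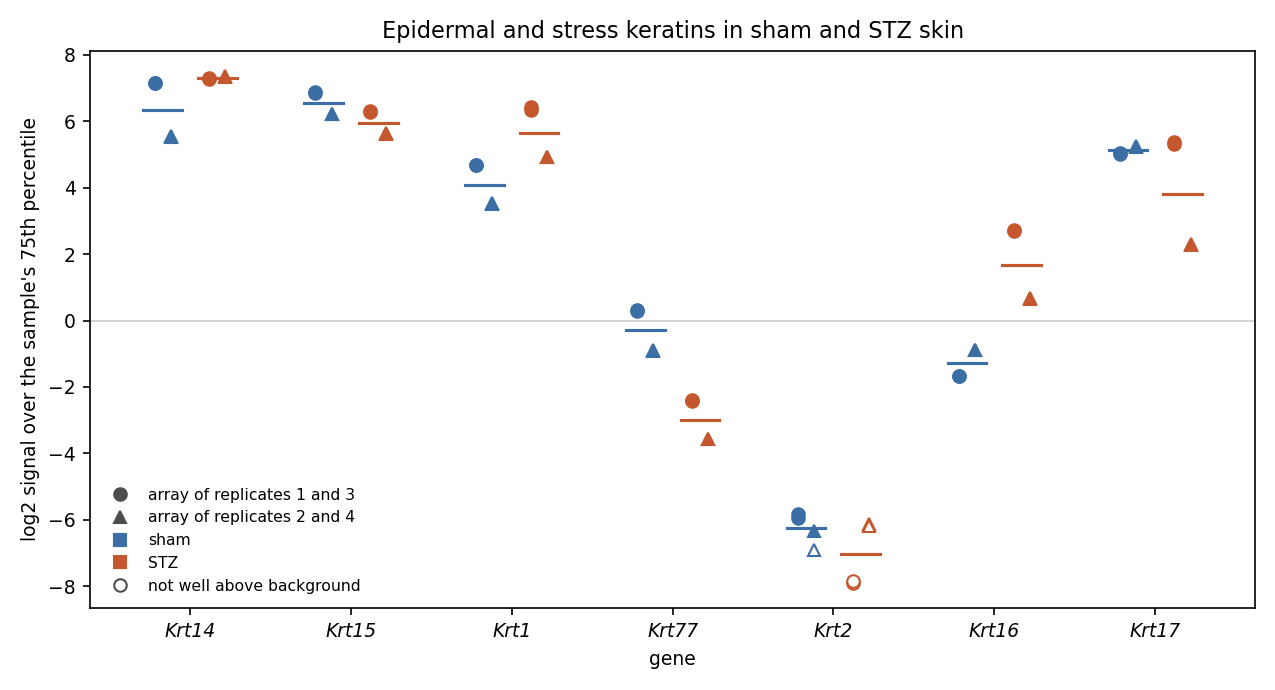
Log2 signal over the 75th percentile of the sample (y axis) for the 7 matched keratins (x axis) in the 8 samples, with circles for array A (replicates 1 and 3), triangles for array B (replicates 2 and 4), open symbols for samples not well above background, and lines at group means. Krt16 is higher and Krt77 lower on both STZ arrays than on both sham arrays, while the STZ arrays lie 3.06 apart for Krt17 and Krt2 lies near background.

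Among the stress keratins, Krt16 encodes the type I partner of the Krt6 proteins. Its processed signal was 359.6, 706, 366 and 728 in sham replicates 1 to 4, against 9506, 947, 9918 and 998 in STZ replicates 1 to 4. Scaled to the 75th percentile on the log2 axis, the sham values were −1.66, −0.88, −1.68 and −0.88, and the STZ values 2.68, 0.64, 2.73 and 0.68. Every STZ value lay above every sham value, and STZ array A was the highest by a wide margin. Such a separation of the groups, with STZ above sham, was found for 26.9% of tested probes. The change was 2.73 ± 0.81 (SE, n = 2 arrays per group), with a 95% interval from 0.66 to 4.81, and it exceeded that of 97.7% of tested probes. It was under an unadjusted p of 0.05 (limma, adjusted p = 0.299).

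Leaving out an array leaves 1 in its group, which is then assumed to vary like the other group. Without STZ array A the change of Krt16 was 1.55. Without sham array A it was 2.36 and no longer under an unadjusted p of 0.05. Without STZ array B it was 3.95.

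Markers of immune cells were higher on both STZ arrays too. The 9 tested markers of macrophages and dendritic cells all had changes above 0, and 8 were higher at an unadjusted p under 0.05 (limma), where 7.78% of genes were. Their summed signal, in multiples of the 75th percentile, was 46.7 and 26.9 on sham arrays A and B and 140.3 and 166 on STZ arrays A and B. Of 6 tested neutrophil markers 5 were higher, with sums of 1.75 and 1.53 in sham and 59.9 and 66.8 in STZ. Of 7 tested T cell markers 6 were higher, with sums of 1.62 and 1.34 in sham and 8.74 and 14.0 in STZ. S100a8 made up most of the neutrophil sum in STZ. The median deviation of the markers from the sham mean was 2.51 and 2.02 on STZ arrays A and B for macrophages and dendritic cells, 3.31 and 3.09 for neutrophils, and 2.04 and 2.96 for T cells. By summed signal each of these lists was higher on STZ array B than on STZ array A, and by median deviation only that of T cells was. The part of immune cell content in the difference of Krt16 was not tested. In RNA of whole skin, a change in the number of cells of a type and a change in RNA per cell cannot be told apart.

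Krt17 encodes a type I keratin of the outer root sheath and of stressed epidermis. It measured 5.05, 5.25, 5.03 and 5.22 in sham replicates 1 to 4, against 5.37, 2.30, 5.32 and 2.28 in STZ replicates 1 to 4. STZ array A was slightly above both sham arrays and STZ array B far below them, so the groups overlapped. The change was −1.54 ± 1.05, with a 95% interval from −4.25 to 1.16 (limma, adjusted p = 0.663). Its direction rested on 1 array, since it was 0.18 without STZ array B. Without STZ array A it was −3.23 and under an unadjusted p of 0.05 (limma, adjusted p = 0.0668).

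Hair keratins differed between the STZ arrays in the same direction as Krt17. So did Krt1, Krt15, Krt16 and Krt77, while Krt14 was nearly equal on both, so this direction was not particular to Krt17 and hair keratins. In a chosen list of inner root sheath and hair shaft keratins, all 17 tested were lower in STZ at an unadjusted p under 0.05 (limma), where 4.47% of genes were, and their median change was −6.61. Their median deviation from the sham mean was −4.62 on STZ array A and −8.44 on STZ array B. Each of the 17 was lower on STZ array B than on STZ array A, with differences from −6.67 to −0.20. In at least 1 STZ sample, 3 of them were not well above background. With 1 array left out, 14 to 17 of the 17 were lower at that threshold. The list does not hold Krt36 and Krt84, which are also known from hair-forming epithelium and nail, with changes of −4.05 ± 0.95 and 0.48 ± 0.74. Nor does it hold Krt87, whose change was −6.68 ± 1.34.

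Krt75, the keratin of the companion layer between inner and outer root sheath, showed this order as well. It measured 0.60 and 1.89 on sham arrays A and B and −2.35 and −6.47 on STZ arrays A and B, with 2 of 4 STZ samples well above background. The part of hair follicle content in the values of Krt17 was not tested.

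**Figure D2:**
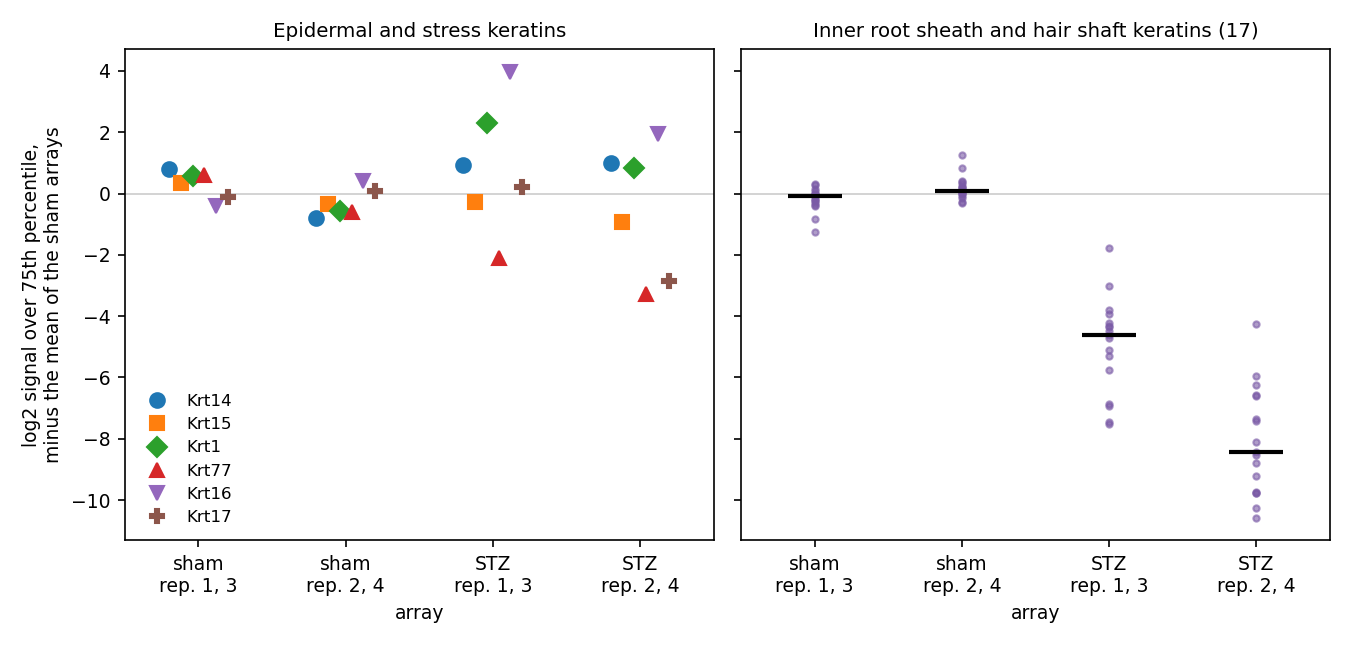
Log2 signal over the 75th percentile minus the mean of the sham arrays (y axis) on each of the 4 arrays (x axis, array A as rep. 1, 3 and array B as rep. 2, 4), for the 6 tested epidermal and stress keratins (left, 1 symbol per gene) and the 17 tested inner root sheath and hair shaft keratins (right, dots per gene, bars at the median). The hair keratin median lies at −4.62 and −8.44 on the STZ arrays, Krt17 is low on STZ array B alone, and Krt16 and Krt1 are above the sham mean on both STZ arrays.

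Krt16 and Krt17 lie side by side on the chromosome, and their signals parted in STZ skin. The within-array difference of Krt16 minus Krt17 does not depend on how an array is scaled. It was 3.77 and 4.78 above its sham mean on STZ arrays A and B, and within 0.30 of that mean on the sham arrays. The change of the difference was 4.28, and both STZ arrays exceeded both sham arrays. The exact two-sided permutation p was 0.333, the smallest that 4 arrays allow. This pair, like that of Krt1 and Krt77, was chosen after the values were seen.

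Of the keratins of basal cells, Krt14 builds the filaments of the proliferating layer together with Krt5. It measured 7.16, 5.55, 7.14 and 5.53 in sham replicates 1 to 4, against 7.29, 7.36, 7.26 and 7.34 in STZ replicates 1 to 4. The STZ arrays were nearly equal, sham array A lay just below them, and sham array B was 1.61 lower than sham array A. Over the median probe of each array instead of the 75th percentile, Krt14 was at 9.05 and 7.25 on the sham arrays and at 9.02 and 8.89 on the STZ arrays, so that the groups overlapped. The change was 0.74 ± 0.65, with a 95% interval from −0.94 to 2.42 (limma, adjusted p = 0.623). Without sham array B it was −0.089, and without sham array A it was 1.57.

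Sham array B was also the lower sham array for both tested keratinocyte markers that are not keratins. Itgb4, an integrin of hemidesmosomes, measured 4.56 and 3.25 on the sham arrays and 4.19 and 3.52 on the STZ arrays. Cdh1, the epithelial cadherin, measured 5.47 and 4.92 in sham and 5.05 and 4.44 in STZ. Neither separated the groups, and both were well above background in every sample. Both were also lower on STZ array B than on STZ array A, where Krt14 was not. Krt1, Krt15 and Krt77 were lower on sham array B than on sham array A too. Krt16 and Krt17 were higher on sham array B, so the order was not common to all keratinocyte genes. The part of keratinocyte content in the sham spread of Krt14 was not tested.

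Krt15, a type I keratin of basal cells and a marker of bulge stem cells, was more even. It measured 6.89, 6.21, 6.86 and 6.20 in sham replicates 1 to 4, against 6.29, 5.64, 6.26 and 5.61 in STZ replicates 1 to 4. STZ array A lay between the sham arrays, and STZ array B was below both. The change was −0.81 ± 0.51, with a 95% interval from −2.12 to 0.49 (limma, adjusted p = 0.681), which holds a large fall as well as a small rise. Among 12615 genes, the profiles nearest to that of Krt15 over the 4 arrays were those of Capn1, a calpain protease, Tmem63a, a membrane channel, and Pof1b, an actin-binding protein. Their Euclidean distances from it, between centred log2 profiles, were 0.044, 0.048 and 0.055. Over 4 arrays such closeness is a description only.

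Krt1 is the type II keratin that marks the switch from the basal to the spinous layer. It measured 4.67, 3.51, 4.67 and 3.52 in sham replicates 1 to 4, against 6.42, 4.94, 6.35 and 4.92 in STZ replicates 1 to 4. Every STZ value was above every sham value, but STZ array B exceeded sham array A by little. Over the median probe, Krt1 was at 6.57 and 5.23 on the sham arrays and at 8.13 and 6.47 on the STZ arrays, and there the groups overlapped. The change was 1.33 ± 0.72, or 2.52-fold, with a 95% interval from −0.51 to 3.18 (limma, adjusted p = 0.525). It was 0.45 without STZ array A and 0.73 without sham array B. Without STZ array B it was 2.26 and under an unadjusted p of 0.05 (limma, adjusted p = 0.394).

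Krt77, the type II keratin gene next to Krt1, went the other way. Its processed signal was 1394, 703, 1474 and 708 in sham replicates 1 to 4, against 279.5, 51.7, 279.9 and 52.3 in STZ replicates 1 to 4. Scaled to the 75th percentile on the log2 axis, the sham values were 0.29, −0.88, 0.33 and −0.92, and the STZ values −2.41, −3.55, −2.42 and −3.58. Every STZ value lay below every sham value, as was the case for 17.9% of tested probes. The change was −2.92 ± 0.67, with a 95% interval from −4.64 to −1.20, under an unadjusted p of 0.05 (limma, adjusted p = 0.261). Without sham array A it was −2.29 and no longer under an unadjusted p of 0.05, and without either STZ array it stayed under it, at −3.65 and −2.15.

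In both groups, Krt1 and Krt77 were each higher on array A than on array B, by 1.15 to 1.45. The within-array difference of Krt1 minus Krt77 therefore varied little between arrays of a group. On the sham arrays it lay 0.030 from its mean, and on STZ arrays A and B it was 4.40 and 4.10 above that mean. The change of the difference was 4.25, with an SD of 0.042 between the sham arrays and 0.21 between the STZ arrays. Here too the pair was chosen after the values were seen, and the exact two-sided permutation p was 0.333, the smallest possible.

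Krt2, a keratin of the uppermost living layers of the epidermis, was close to background. Its processed signal was 20.1, 16.0, 18.9 and 11.2 in sham replicates 1 to 4, against 6.26, 8.62, 6.48 and 8.53 in STZ replicates 1 to 4. It was well above background in 3 of 4 sham samples and in 0 of 4 STZ samples. On each STZ array it was then set to the dimmest probe still well above background, or to its own signal where that was higher. With these values the mean of Krt2 was 1.56-fold higher in sham, a fold that is not set relative to the median probe. This is not a minimum fold, since sham replicate 4 was not well above background either. The scaled sham mean of Krt2 was −6.26 and its measured STZ mean −7.02. The arrays overlapped, since STZ array B was at −6.16 and sham array B at −6.62.

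The upstream sequences of Krt2 and Krt77 are shown because these neighbours on either side of Krt1 both had lower mean signals in STZ. For Krt2 that signal was near background and the arrays overlapped. Both also have an entry in the RefSeq promoter table (GRCr8), as 4 of the 10 members do. Each run covers the 250 bases before the annotated start of the gene on the minus strand, 5′ to 3′. Capitals mark every match, on either strand, of TATANA, the core of a TATA box.
Krt2, chr7:134826737-134826986: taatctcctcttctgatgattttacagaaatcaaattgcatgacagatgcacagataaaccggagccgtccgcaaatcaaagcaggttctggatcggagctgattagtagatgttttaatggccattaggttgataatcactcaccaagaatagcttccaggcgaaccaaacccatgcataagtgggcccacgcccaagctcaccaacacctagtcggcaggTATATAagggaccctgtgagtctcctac
Krt77, chr7:134880777-134881026: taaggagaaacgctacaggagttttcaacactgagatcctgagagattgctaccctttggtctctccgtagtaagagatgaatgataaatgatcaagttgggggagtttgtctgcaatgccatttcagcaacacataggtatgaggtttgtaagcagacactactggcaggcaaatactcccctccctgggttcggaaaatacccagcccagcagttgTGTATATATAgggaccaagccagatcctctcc
Both hold TATANA with its last base 23 bases before the start, and in Krt77 further matches overlap it. The motif is found in 24.2% of 33469 promoters of the same length. The letters of TGANTCA (the AP-1 motif, in 6.34% of promoters), GGGCGG (the Sp1 motif, in 30.5%) and TTCNNNGAA (the STAT motif, in 7.67%) were in neither window on either strand. These are descriptions of the letters alone.

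The members can be set beside the other keratins on the array. Of 32 tested keratin genes outside the set, 22 were lower and 1 was higher at an unadjusted p under 0.05 (limma), against 4.47% and 7.78% of all genes. The 17 listed hair keratins are among the 22, and the rest were Krt8, Krt23, Krt36, Krt75 and Krt87. Krt16 had the highest change of the 38 tested keratins, and Krt20, a keratin of gut and Merkel cells, was next at 2.68 ± 0.47, closer to Krt16 than their errors. Krt20 was dim but well above background in every sample, at −6.23 and −5.99 on the sham arrays and −2.85 and −3.55 on the STZ arrays. Among 11 tested keratins of simple, mucosal and follicle epithelia, Krt20 was the 1 that was higher, and 4 were lower. Of these 4, Krt8, a keratin of simple epithelia and Merkel cells, measured 3.40 and 2.11 in sham and 0.07 and −0.24 in STZ, and the others were Krt23, Krt36 and Krt75.

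**Figure D3:**
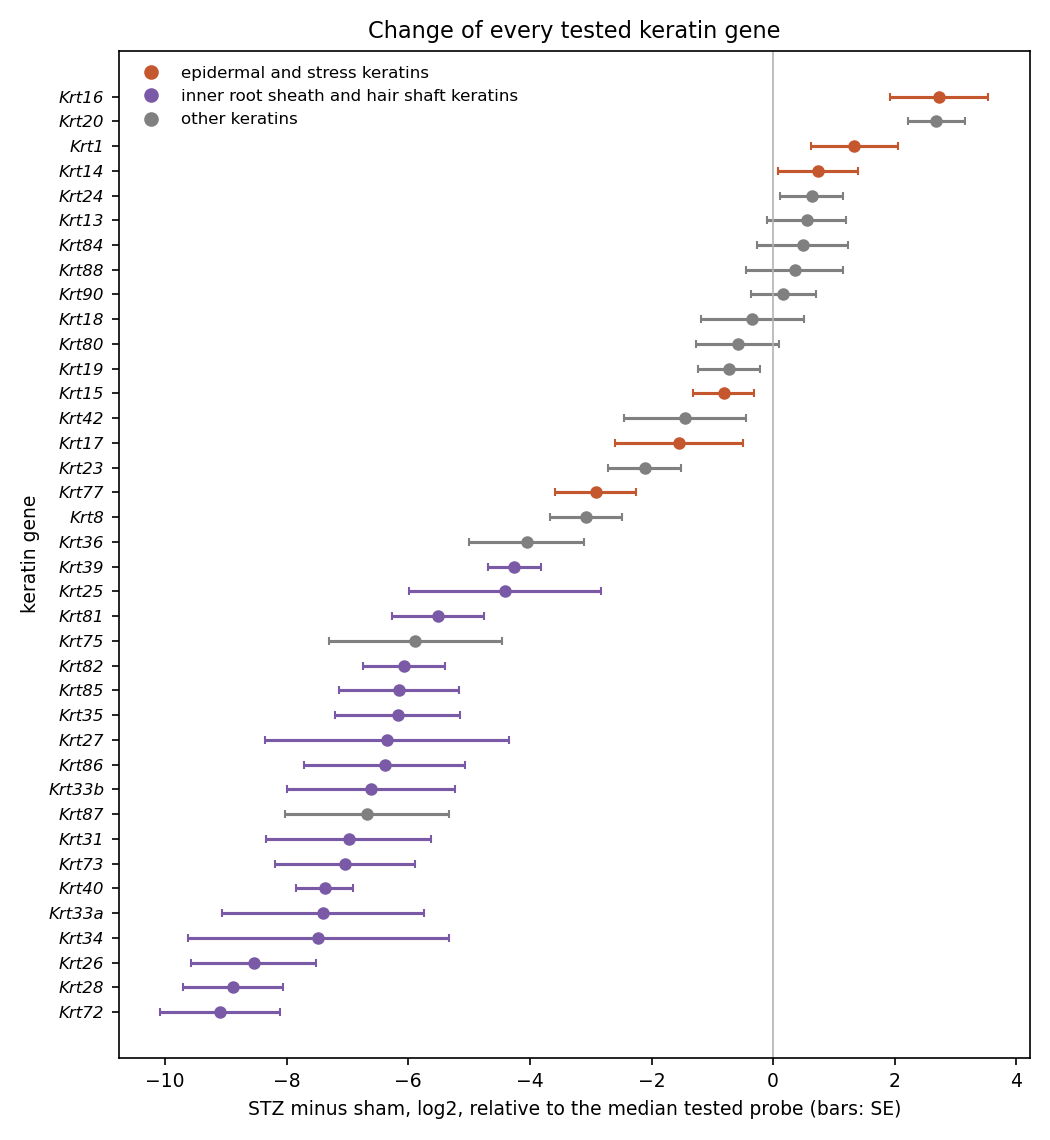
Change in STZ against sham skin, as a log2 difference relative to the median tested probe (x axis, bars show the moderated SE), for the 38 tested keratin genes (y axis), with epidermal and stress keratins in orange, inner root sheath and hair shaft keratins in purple and others in grey. The 17 listed hair keratins lie between −9.09 and −4.26, while the 6 epidermal and stress keratins run from −2.92 for Krt77 to 2.73 for Krt16.

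Other genes that keratinocytes switch on in wounded or inflamed epidermis were mostly higher, as Krt16 was. At an unadjusted p under 0.05 (limma), 10 of 15 tested were higher and 0 were lower, against 7.78% and 4.47% of all genes, and the median change was 2.65. Defb4, an antimicrobial beta-defensin, measured −6.33 and −7.07 on the sham arrays and 2.75 and 2.17 on the STZ arrays, and was well above background in 3 of 4 sham samples. S100a8, a calprotectin subunit that neutrophils also carry, had a change of 5.30 ± 0.42, and Slpi, a secreted protease inhibitor, one of 4.47 ± 0.71. S100a8 and Lcn2 also stand among the tested neutrophil markers, so the counts of both lists are not separate. Which cells made these transcripts was not tested. Without sham array B, 7 of the 15 were higher.

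Of 10 tested genes of the desmosome, the junction that anchors keratin filaments, 2 were lower at an unadjusted p under 0.05 (limma), where 4.47% of genes were. All 10 changes relative to the median probe were below 0, with a median of −1.02, although some scaled means were slightly higher in STZ. The 2 genes lower at that threshold were the desmocollin Dsc2, with a change of −3.98 ± 0.63, and Dsg4, a desmoglein of the hair shaft. Dsg4 measured 3.15 and 2.54 in sham and −1.52 and −4.32 in STZ. Evpl, a plakin that links desmosomes to keratins, came next at −2.67 ± 0.97 (limma, adjusted p = 0.471). Without STZ array A the median change of the 10 was −2.21. Without STZ array B it was −0.54, and 6 of 10 changes were below 0. The 6 tested fibroblast markers had a summed signal of 405 and 362 on the sham arrays, 436 on STZ array A and 884 on STZ array B, and their part in these differences was not tested.

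Hemidesmosome and basal layer genes, the partners of Krt14, gave a median change of −0.23 over 7 tested, and 0 passed an unadjusted p of 0.05 by limma in either direction. That median was 0.08 after quantile normalization and ran from −0.77 without STZ array A to 0.28 without STZ array B. The partners of Krt1, genes of suprabasal differentiation, gave a median of −0.07 over 7 tested. The median of these 7 genes was 0.14 after quantile normalization and ran from −0.85 without STZ array A to 0.73 without STZ array B. Of these, Ivl, the envelope protein involucrin, was lower at an unadjusted p under 0.05 (−1.89 ± 0.42), but not without either sham array. It measured 4.11 and 4.34 in sham and 2.64 and 2.47 in STZ, so Ivl and Krt1, both made above the basal layer, had changes of opposite sign.

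At an unadjusted p under 0.05 (limma), 3 of 14 tested regulators of keratin genes were lower and 0 were higher, against 4.47% and 7.78% of all genes, with a median of −0.79. Gata3, a factor of epidermal and inner root sheath fate, had a change of −2.71 ± 0.54. The receptor Notch1 measured 3.95 and 4.14 in sham and 2.71 and 1.85 in STZ, and Ovol1, a repressor at the exit from the basal layer, had a change of −2.01 ± 0.64. The median of these regulators ran from −2.02 without STZ array A to −0.02 without STZ array B. The count of 3 changed with the array left out. Of 7 tested genes of the bulge and outer root sheath, where Krt15 and Krt17 are also made, Lhx2, a factor of follicle stem cells, was the 1 that was lower at that threshold, at −3.24 ± 0.91, but not without sham array A. Of 5 tested genes of keratin binding and turnover, Fam83h, which organises keratin filaments, was the 1 that was lower, at −2.18 ± 0.67, but not without sham array A, sham array B or STZ array B. With lists of 7 and 5, counts of 1 do not set them apart from the 4.47% of all genes that were lower.

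The error of these changes came from differences between arrays. Repeat scans of the tested members differed by at most 0.07 on the log2 scale, while arrays of a group differed by 0.08 (Krt14 in STZ) to 3.06 (Krt17 in STZ). The changes of Krt1, Krt15, Krt16 and Krt77 kept their sign in all 15 other settings that were run, and those of Krt14 and Krt17 in 14 of 15 each.

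**Figure D4:**
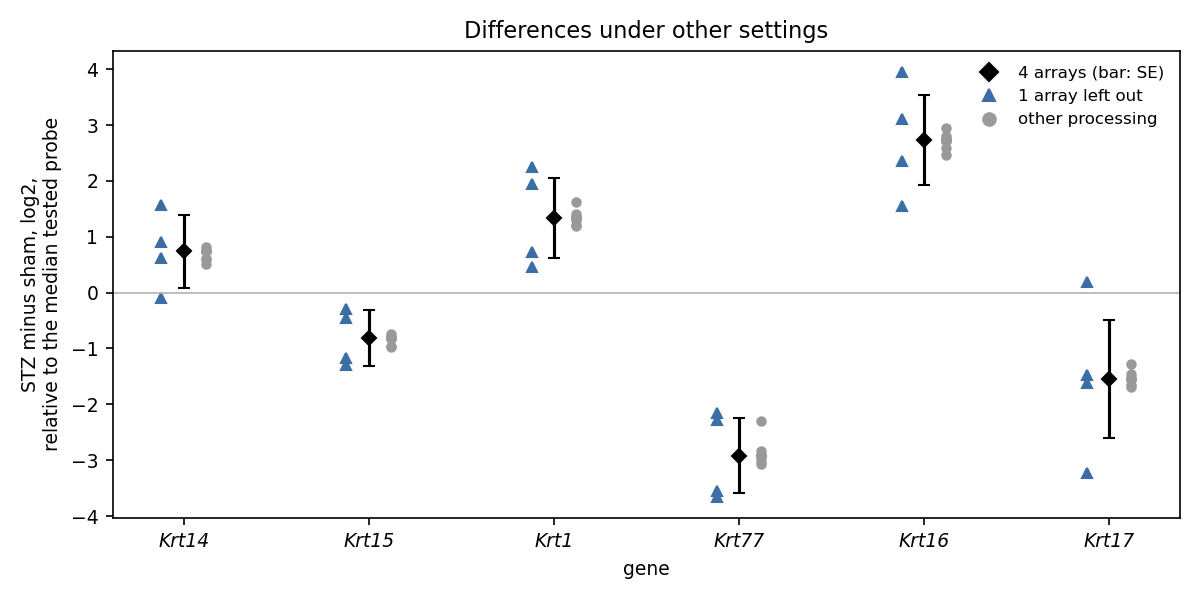
Change in STZ against sham skin, as a log2 difference relative to the median tested probe (y axis), for the 6 tested keratins (x axis) from 4 arrays (black, bars show the moderated SE), with 1 array left out (blue) and under other processing (grey). Leaving out 1 array moves the values most, from 1.55 to 3.95 for Krt16 and from −3.23 to 0.18 for Krt17.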

How the data were processed

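RNA of 8 samples, 4 sham and 4 STZ by the labelled treatment, was labelled with Cy3. The deposited intensity of a spot is Agilent's processed signal, background-subtracted but not normalized between arrays, from Feature Extraction version 11.0.1.1 in the headers and 11.0.0.1 in the submitters' processing notes. Deposited median intensities of spots and background served 1 alternative. The deposited flags (other values) mark spots as well above background, saturated or outlying, per the file headers.

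Here log2 signals were set to the 75th percentile of 42136 noncontrol spots, without outlier spots, and averaged per probe. A filter kept probes that were well above background in 4 or more samples. Scans were averaged (avearrays) and groups compared by limma 3.58.1 (lmFit, eBayes, two-sided; R 4.3.3). Adjustment covered all 21527 probes, of which 18 lacked a value on at least 1 array, no member among them. The number of arrays limits the precision. Data simulated with the sham spread in both groups served to check that the fit recovered added differences on average. The error rate of the p-values was not judged from them. A GRCr8 RefSeq table named 14237 of 15284 coding accessions. The headers name rn4, so no probe position is given.

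The members and lists were chosen with earlier results of these data known. The text names every member and, per list, up to 3 genes by smallest p and those a member is compared with. A gene's probe with the highest mean signal stood for it. Planned partner pairs (Krt5 with Krt14, Krt1 with Krt10, Krt6a with Krt16 or Krt17) had 0 with both genes tested. Most alike genes, planned for Krt6a, Krt15 and Krt2, are given for Krt15 alone. Alternatives changed normalization, background correction, filter, probe choice, use of scans, blocks and arrays.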

Additional observations from a re-analysis of the deposited data

How the results depend on the processing

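At an unadjusted p under 0.05, 1 member was higher and 1 lower. There were 2 higher, Krt1 being added, with the 8 samples as separate arrays and also with the replicate block, which pairs array A and array B across groups and changed no other member's call. Whether the numbers pair the arrays is not known. Deviations of same-numbered arrays from group means correlated at −0.20 over 21527 probes, which cannot settle it with 2 arrays per group. With crossed numbers the counts were 1 and 1. Leaving out each array in turn gave 0 to 2 higher and 0 to 2 lower. It moved the median change of the basal keratins (−0.04 with all arrays) from −0.63 to 0.56. For the stress keratins (0.59 with all arrays) the median ran from −0.84 to 2.07. For the suprabasal keratins (−0.79 with all arrays) it ran from −1.60 to 0.05. Each of these sets had only 2 tested genes, with changes of opposite sign, so its median is the midpoint between them and describes neither. The change of Krt14 ran from −0.089 to 1.57 and that of Krt17 from −3.23 to 0.18, and both signs turned with 1 array left out. The cause was not tested. Quantile normalization, normexp, no filter and either scan alone each gave 1 and 1. Normexp used median spot signals, a choice made after seeing the data, as were the crossed numbers, median centring and the filter on all samples. A slide block could not be fitted, since all arrays shared 1 slide. Krt2 is limited by its signal, which was near background.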
